A study of Mus musculus with 10 samples.

Results

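Transcripts of 8 transcriptional regulators of the mouse somite were followed through a differentiation of embryonic stem cells (ESCs): Meox1, Meox2, Tcf15, Foxc1, Foxc2, Dmrt2, Uncx and Eya1. They were chosen by symbol from the 52459 symbols of the deposited raw count table, and all 8 passed the filter on low counts. RNA-seq was made from a C57BL/6 ESC line, ES-Bruce4, differentiated into neuromesodermal progenitors (NMPs), a posterior cell population from which both the spinal cord and the paraxial mesoderm arise. The study asked what 24 h of Gdf11, a secreted Tgf-β family ligand, does to these cells at the end of the time course. All groups are wild type and began in medium with bFgf (10 ng/ml) from day 0. The protocol added CHIR99021 (5 µM), which switches on Wnt signalling by inhibiting Gsk3, on day 2, with a split on day 3. Cells collected on day 2 therefore had no split and no full day of CHIR99021. Day 2 (D2) is labelled epiblast stem cell, and day 3 (D3) and day 6 (D6) are labelled NMP. D7G cells received Gdf11 (50 ng/ml) on day 6 and were collected 24 h later, and D7 cells are the untreated day 7 cultures. Each group has 2 libraries from a single line. Nothing in the labels says that they came from separate cultures, so the tests measure a spread that may be technical. The ESCs were grown on mouse embryo fibroblast feeders, which were depleted before differentiation, and B27 with or without vitamin A was used, without a statement of which.

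Somites are blocks of epithelial mesoderm that bud from the presomitic mesoderm beside the neural tube, and they later divide into the sclerotome, which forms vertebrae and ribs, and the dermomyotome, which forms dermis and muscle. Foxc1 and Foxc2 are forkhead factors needed together for paraxial mesoderm to form somites, Meox1 and Meox2 are homeodomain factors needed together for the axial skeleton and the muscles, and Tcf15 (also called paraxis) is a bHLH factor needed for the somite epithelium. Dmrt2 acts in the dermomyotome, Uncx marks the posterior part of the somite and is needed for pedicles and proximal ribs, and Eya1 is a transcriptional coactivator and phosphatase that acts in muscle precursors and other organs.

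The 8 genes lie on 8 chromosomes. By the exon coordinates deposited with the raw counts (mm10), Meox1 spans chr11:101877510-101894374 on the minus strand, Meox2 chr12:37108540-37179534 on the plus strand, and Tcf15 chr2:152143561-152149097 on the plus strand. Foxc1 spans chr13:31806633-31812476 and Foxc2 chr8:121116171-121118895, both on the plus strand. Dmrt2 spans chr19:25672420-25679010 and Uncx chr5:139543494-139548179, both on the plus strand, and Eya1 spans chr1:14168954-14310235 on the minus strand. No exon of another gene in the GENCODE vM21 annotation overlaps one of these exons of the 8 genes.

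RefSeq start regions (GRCm38.p6, the assembly behind mm10) were matched by symbol for 4 of the 8 genes. The bases upstream of the annotated exons are shown for Meox2, Foxc1 and Dmrt2, each of which is set beside a paralogue or a neighbouring gene in the results, and for Uncx around its pair of homeodomain core motifs. All are on the plus strand, written 5′ to 3′, with the motif found in capitals.
Meox2, chr12:37108290-37108539: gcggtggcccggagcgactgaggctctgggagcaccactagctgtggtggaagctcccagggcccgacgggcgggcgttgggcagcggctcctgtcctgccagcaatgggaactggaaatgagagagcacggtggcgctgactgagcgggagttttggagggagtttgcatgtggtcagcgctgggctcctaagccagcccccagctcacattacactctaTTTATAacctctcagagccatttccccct
Foxc1, chr13:31806396-31806632: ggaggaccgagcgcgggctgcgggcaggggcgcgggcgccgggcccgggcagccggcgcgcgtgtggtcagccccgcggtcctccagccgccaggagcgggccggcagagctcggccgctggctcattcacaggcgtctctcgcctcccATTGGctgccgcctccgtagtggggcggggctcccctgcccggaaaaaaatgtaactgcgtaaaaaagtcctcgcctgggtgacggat
Dmrt2, chr19:25672254-25672410: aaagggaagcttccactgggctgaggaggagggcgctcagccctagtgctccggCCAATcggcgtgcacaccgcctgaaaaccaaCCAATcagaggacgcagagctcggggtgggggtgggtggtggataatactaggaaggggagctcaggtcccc
Uncx, chr5:139543753-139543782: gcgtgtcaggtaTAATTAgcaatcgatatg
Uncx, chr5:139543856-139543885: ccgggccgcggcTAATTAtcgagagcttga

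The Meox2 window held 1 TATA box (TATAAA on the opposite strand) that begins 29 bases before the RefSeq start, a motif found on either strand in 12.4% of the 32851 windows of 250 upstream bases. Dmrt2 held 2 CCAAT boxes, 103 and 72 bases before its start, and Foxc1 held 1 on the opposite strand, 101 bases before its start, with CCAAT or ATTGG present in 33.85% of windows. Uncx held 2 homeodomain cores (TAATTA), 133 and 30 bases before its RefSeq start, against 4.84% of windows with at least 1. It also held 1 CCAAT box. Both Uncx sites lie in the first exon of a longer GENCODE model of the gene. A T-box motif (AGGTGTGA), a Tcf/Lef motif (ATCAAAG), a forkhead motif (GTAAACA) and the E-boxes CAGCTG and CATATG, all searched on both strands, had no match in the 4 windows. These matches describe letters in short windows and no binding was measured.

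The libraries held 31078950 to 33418015 counts each. The mean chi-square per gene between replicates was 1.95 in D2, 2.15 in D3, 3.62 in D6, 4.25 in D7G and 2.87 in D7, so replicates differed by more than counting noise in every group. Markers followed the labels in part. Pou5f1 and Fgf5, markers of the epiblast, averaged 565 and 19.9 CPM (read counts scaled to library size) at D2. Pou5f1 still averaged 255 CPM at D3 and 147 CPM at D6, and Fgf5 0.354 and 0.677 CPM. T (Brachyury), Cdx2 and Nkx1-2, markers of NMPs, averaged 232, 154 and 235 CPM at D3. At D6, also labelled NMP, T averaged 41.7 CPM, Cdx2 111 CPM and Nkx1-2 117 CPM. At D7, T averaged 19.8 CPM and Sox2 232 CPM. Each library pools whole cultures, so fewer cells of a type and less RNA per cell cannot be told apart in any result here.

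The members other than Tcf15 were at their highest at D6, 3 days after the split. Tcf15 was higher at D2. Summed over the 8 genes, the level per length was 17.7 and 18.2 RPKM (CPM per kilobase of exon) at D2, most of it Tcf15, then 4.48 and 5.58 RPKM at D3 and 64.2 and 50.8 RPKM at D6. It was 16.4 and 18.6 RPKM in D7G, against 27.6 and 26.3 RPKM in D7. Per length at D6, Meox1 (mean 19.4 RPKM), Dmrt2 (14.8 RPKM) and Tcf15 (12.1 RPKM) stood above Foxc2 (3.44 RPKM), Foxc1 (2.72 RPKM), Eya1 (2.33 RPKM), Uncx (1.82 RPKM) and Meox2 (0.976 RPKM).

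**Figure D1:**
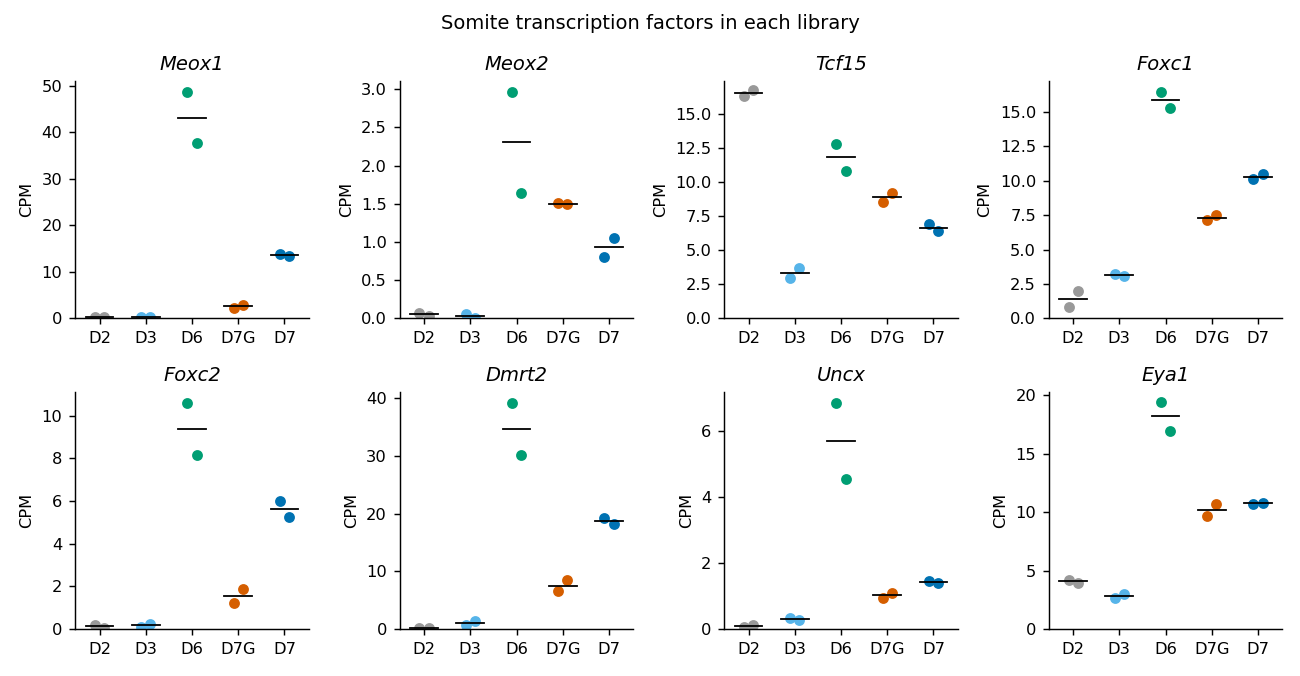
Level of each gene in each library. Each panel is 1 gene, the y axis is CPM from 0, points are libraries and bars are the mean of 2; Tcf15 is the gene whose D2 libraries (16.4 and 16.8 CPM) are above all others, and Meox1 shows D7G libraries (2.19 and 2.92 CPM) well below D7 (13.9 and 13.5 CPM).

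Between D2 and D3, the day after CHIR99021 was added, the 8 genes moved in different directions. At D3, 3 of the 8 were higher and 2 lower than at D2, where 29.6% of the 18818 tested genes were called higher and 28.9% lower (edgeR quasi-likelihood test, adjusted p under 0.05 over all tested genes). Dmrt2, Foxc1 and Uncx were the higher ones and Tcf15 and Eya1 the lower ones. Meox1, Meox2 and Foxc2 had at most 10 counts in any D2 or D3 library, and no change between these days was called for them. Counts this low limit what could be detected.

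By D6 every one of the 8 genes had risen over D3, with 32.4% of all tested genes called higher and 33.3% called lower. The smallest log2 fold change was 1.83 (Tcf15) and the largest 7.26 (Meox1), with a median of 4.62 over the 8 genes and of -0.01 over all tested genes. None of the alternatives, including leaving out each library, changed this count.

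One day later without Gdf11, all 8 were lower at D7 than at D6, while 15.6% of tested genes were called lower and 20.5% higher. Among all called genes, the share that was higher depended on the setting. It was 56.8% here, 48.9% with a filter of 1 CPM in 2 libraries and 66.1% with unscaled library totals. All 8 genes were called lower in each of these settings. The median log2 fold change was -0.86 over the 8 genes and 0.04 over all tested genes. The range ran from -0.63 (Foxc1) to -1.997 (Uncx). In the same comparison 7 of 10 neuronal genes, 7 of 11 tested spinal cord progenitor genes and 6 of 9 tested embryo fibroblast genes were higher, and 0, 0 and 1 of them were lower. Their summed levels were 155 to 157, 939 to 945 and 390 to 407 CPM in D7, against 98.4 to 100.5, 750 to 814 and 272 to 287 CPM in D6. Their part in the fall of the 8 genes was not tested. Lists closer to the 8 genes were called in both directions. Of 10 tested dermomyotome and myotome genes, 5 were higher at D7 than at D6 and 2 lower. Of 9 tested sclerotome genes, 2 were higher and 0 lower. Of 13 tested presomitic mesoderm and segmentation genes, 2 were higher and 5 lower.

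With Gdf11 the same day ended differently for individual genes. In D7G, 4 of the 8 were lower than in D7 (Meox1, Foxc2, Dmrt2 and Foxc1), 1 was higher (Tcf15) and 3 were not called (Meox2, Uncx and Eya1), against 18.2% of tested genes called lower and 22.5% called higher. The median log2 fold change was -0.49 over the 8 genes and 0.02 over all tested genes. The 4 that fell did so under every alternative.

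Against D6, 7 of the 8 genes were lower in D7G and Meox2 was not called, with 22.2% of tested genes called lower and 30.6% called higher. The median log2 fold change was -1.66 over the 8 genes and 0.06 over all tested genes. The comparisons of D7G with D7, D7G with D6 and D7 with D6 share libraries, so they are not independent of each other.

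**Figure D2:**
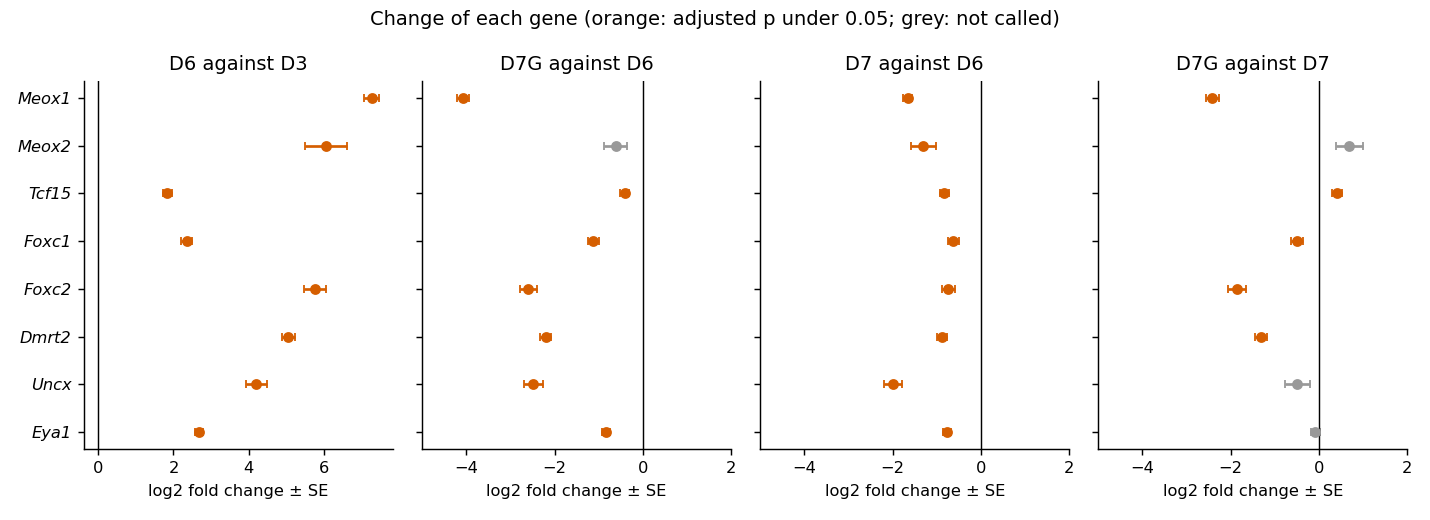
Log2 fold change of each gene in 4 comparisons. Points are edgeR estimates, bars are 1 SE, and the 3 panels on the right share an axis range; all 8 genes lie right of 0 in D6 against D3 and left of 0 in D7 against D6, while D7G against D7 spreads from -2.42 (Meox1) to 0.69 (Meox2, not called).

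Meox1, a homeodomain factor, was nearly absent on days 2 and 3. It was measured at 0.295 and 0.198 CPM in D2, 0.245 and 0.308 CPM in D3, 48.6 and 37.7 CPM in D6, 2.19 and 2.92 CPM in D7G, and 13.9 and 13.5 CPM in D7. Both D7G libraries stood between the early days and D7, and no D7G library overlapped D7 or D6. Meox1 was 5.34-fold lower in D7G than in D7 (log2 fold change -2.42 ± 0.15 SE, adjusted p = 1.27e-10, edgeR). Relative to D6 its mean level was 5.93% in D7G and 31.7% in D7.

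Meox2, its paralogue, was also scarce on the early days. Its libraries held 2 and 1 counts in D2, 2 and 0 counts in D3, 92 and 51 counts in D6, 48 and 48 counts in D7G, and 27 and 35 counts in D7. The D6 libraries differed from each other by more than the D7G libraries did, and no D7G library overlapped D7. Because D3 holds 2 counts in all, the rise by D6 is given as a ratio of 75.0 in depth-scaled counts, with a 95% exact interval for counting error of 20.4 to 625. The fitted log2 rise of 6.06 became 9.22 without D3 replicate 1 and 5.15 without D3 replicate 2, and was called in both cases. The D7G to D7 difference in log2 level was 0.69 ± 0.30 (SE), in the opposite direction to that of Meox1, and missed the threshold (adjusted p = 0.0783, edgeR). It passed at adjusted p = 0.0448 with only the libraries of D7G and D7, 0.0414 without D6 replicate 1 and 0.0400 without D6 replicate 2. In the other alternatives it did not pass, with an adjusted p of up to 0.353 and a difference of 0.49 without D7 replicate 1. For D7 against D6 Meox2 fell by 1.30 on the log2 scale, and without D6 replicate 1 the difference was -0.82 and no longer called (adjusted p = 0.0573, edgeR).

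Between the paralogues the balance per length differed among the groups. The Meox1 to Meox2 ratio of RPKM was 17.4 and 24.2 in D6, 1.55 and 2.07 in D7G, and 18.2 and 13.5 in D7. Every D6 and D7 library had at least 13.5 times as much Meox1 as Meox2, and both D7G libraries had at most 2.07 times as much. These ratios of single libraries were not tested.

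Foxc1 was above Foxc2 in every D2 and D3 library, where Foxc2 was detected at few counts. Foxc1 had 0.819 and 2.01 CPM in D2, 3.19 and 3.05 CPM in D3, 16.5 and 15.3 CPM in D6, 7.12 and 7.49 CPM in D7G, and 10.1 and 10.5 CPM in D7. Foxc2 had 0.197 and 0.0659 CPM in D2, 0.0919 and 0.247 CPM in D3, 10.6 and 8.17 CPM in D6, 1.22 and 1.87 CPM in D7G, and 6.01 and 5.24 CPM in D7. For both genes the D7G libraries lay below the D7 libraries and the D7 libraries below D6.

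Foxc2 was 3.63-fold lower in D7G than in D7 (log2 fold change -1.86 ± 0.21 SE, adjusted p = 4.86e-07, edgeR) and Foxc1 1.41-fold lower (-0.49 ± 0.13 SE, adjusted p = 0.00591, edgeR). As a share of the D6 mean, Foxc2 stood at 16.5% in D7G and 60.0% in D7, and Foxc1 at 46.0% in D7G and 64.8% in D7. Per length, the ratio of Foxc2 to Foxc1 was 1.38 and 1.14 in D6, 0.368 and 0.534 in D7G, and 1.27 and 1.07 in D7. Foxc2 thus exceeded Foxc1 in each D6 and D7 library and was below it in each D7G library, without a test of the ratio. The rise of Foxc1 by D3 over D2 (log2 fold change 1.14 ± 0.23 SE) depended on the D2 libraries, at 0.63 without D2 replicate 1 and 1.93 without D2 replicate 2, and was called in both cases. Leaving out D3 replicate 2 moved the rise of Foxc2 by D6 to 6.62, against 5.76 with all libraries.

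**Figure D3:**
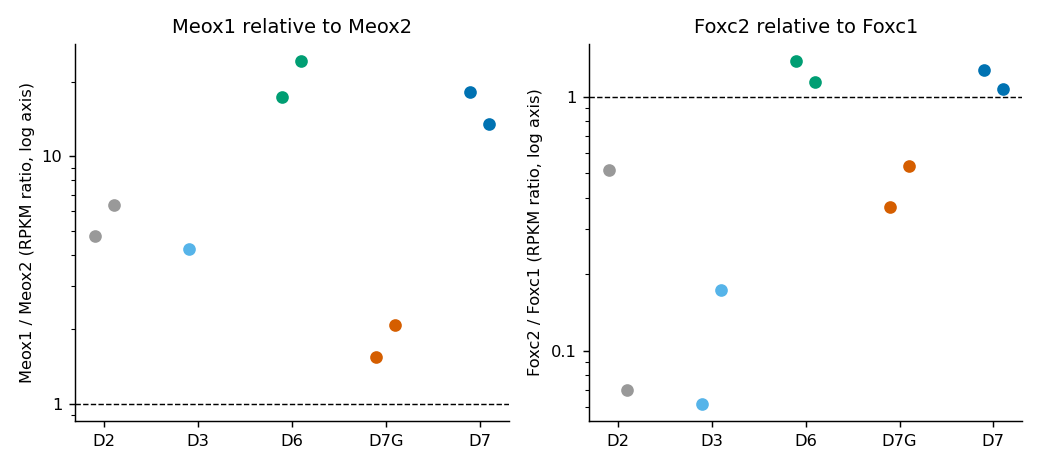
Ratio of paralogue levels per length in each library, on log axes. The left panel is Meox1 over Meox2 and the right panel Foxc2 over Foxc1, with a dashed line at equal levels; 1 D3 library has no Meox1 to Meox2 ratio since Meox2 had 0 counts there, and the D7G libraries (1.55 and 2.07, and 0.368 and 0.534) sit below the D6 and D7 libraries in both panels.

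Tcf15 had a course of its own. It was measured at 16.4 and 16.8 CPM in D2, 2.94 and 3.70 CPM in D3, 12.8 and 10.8 CPM in D6, 8.56 and 9.23 CPM in D7G, and 6.91 and 6.41 CPM in D7. The D2 libraries were the highest and the D3 libraries the lowest, and it was the member whose D2 level exceeded D6; outside the somite, Tcf15 is known in mouse from pluripotent cells that are about to differentiate. Its D6 level was below D2 by 0.48 ± 0.10 (SE) on the log2 scale (adjusted p = 1.64e-04, edgeR).

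Tcf15 was also the member called higher in D7G than in D7, by 1.34-fold (log2 fold change 0.42 ± 0.11 SE, adjusted p = 0.00556, edgeR). The call was lost without D7G replicate 2 (0.34, adjusted p = 0.0523) and without D7 replicate 2 (0.34, adjusted p = 0.0723). Its level in D7G was 75.1% of the D6 mean and in D7 56.3%. The D7G to D6 difference of -0.41 was not called without D6 replicate 1 (-0.29, adjusted p = 0.0607, edgeR).

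Dmrt2, the dermomyotome factor, was the second most abundant member per length at D6. It had 0.131 and 0.132 CPM in D2, 0.735 and 1.36 CPM in D3, 39.2 and 30.2 CPM in D6, 6.65 and 8.40 CPM in D7G, and 19.3 and 18.2 CPM in D7. Levels differed between every pair of groups next to each other in this order, and no library of one group overlapped the next. Dmrt2 was 2.49-fold lower in D7G than in D7 (log2 fold change -1.32 ± 0.13 SE, adjusted p = 1.16e-07, edgeR). It was the member with the largest rise by D3 over D2 (2.96 ± 0.57 SE, adjusted p = 1.69e-04, edgeR). That rise starts from 4 and 4 counts in D2, and ran from 2.46 to 3.34 with single libraries left out.

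Uncx, the factor of the posterior somite, was detected at 2 and 4 counts in D2, 11 and 9 counts in D3, 213 and 141 counts in D6, 30 and 35 counts in D7G, and 49 and 46 counts in D7. At D7 it was 3.99-fold lower than at D6 (log2 fold change -1.997 ± 0.20 SE, adjusted p = 3.00e-07, edgeR), the largest fall among the 8 genes in that comparison. The D7G libraries were below both D7 libraries, but the difference of -0.49 ± 0.27 (SE) was not called (adjusted p = 0.170, edgeR). The rise by D3 over D2 was just past the threshold (log2 fold change 1.604 ± 0.67 SE, adjusted p = 0.0467, edgeR). That call was lost without D2 replicate 1 (1.20), D2 replicate 2 (2.17), D3 replicate 1 (1.47), D3 replicate 2 (1.74), D7 replicate 1 (1.61) or D7 replicate 2 (1.61).

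Eya1, the coactivator, showed no called difference between D7G and D7. It had 4.19 and 3.95 CPM in D2, 2.67 and 3.02 CPM in D3, 19.5 and 16.98 CPM in D6, 9.66 and 10.7 CPM in D7G, and 10.7 and 10.8 CPM in D7. The log2 difference between D7G and D7 was -0.08 ± 0.10 (SE, adjusted p = 0.554, edgeR). Both were near 60% of D6, at 55.8% in D7G and 59.0% in D7. Eya1 was lower at D3 than at D2 (-0.52 ± 0.15 SE, adjusted p = 0.00468, edgeR), a call lost without D3 replicate 1 (-0.42, adjusted p = 0.0585).

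Ordering the 5 groups by mean level within each gene gave 32 neighbouring pairs, of which 25 differed at adjusted p under 0.05 in the edgeR fit. The 7 that did not were D3 and D2 for Meox1, Meox2 and Foxc2, D7G and D6 for Meox2, and D7G and D7 for Meox2, Uncx and Eya1. For D7G against D6 in Meox2, the log2 difference was -0.62 ± 0.26 (SE) with an adjusted p of 0.0502, and its call depended on the setting. It was -0.14 (adjusted p = 0.744, edgeR) without D6 replicate 1 and -0.98 (adjusted p = 0.00300, edgeR) without D6 replicate 2. Over all tested genes, the contrasts behind these pairs called 36% (D7 against D6), 40.7% (D7G against D7), 52.8% (D7G against D6), 58.5% (D3 against D2), 63% (D7 against D3 and D7G against D3), 68.6% (D7 against D2), 69.6% (D6 against D2) and 71.4% (D7G against D2).

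In the genome, several members sit beside relatives, and these did not all change with them. Foxc1 shares its cluster on chromosome 13 with Foxq1 and Foxf2, forkhead genes 246 and 175 kb away. Foxq1 had 32.1 and 27.1 CPM in D7G, against 12.1 and 11.7 CPM in D7, and was higher in D7G by 1.31 ± 0.09 (SE) on the log2 scale (adjusted p = 5.40e-10, edgeR). Foxf2, a gene of visceral and craniofacial mesenchyme, had 4.08 and 4.07 CPM in D7G, against 0.928 and 0.933 CPM in D7, and was higher by 2.13 ± 0.25 (SE, adjusted p = 1.08e-06, edgeR). Both therefore rose in the comparison in which Foxc1 fell.

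Near Foxc2 on chromosome 8, Foxf1 lies 28.0 kb away and was low in both groups, with 14 and 12 counts in D7G and 15 and 9 counts in D7 (log2 difference 0.17 ± 0.42 SE, not called). Foxl1, 9.04 kb from Foxc2, had 0 and 2 counts in D7G, against 16 and 8 counts in D7, and was called lower (adjusted p = 0.00340, edgeR), the direction of Foxc2. No fold is given for counts this small.

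Next to Dmrt2 on chromosome 19, Dmrt3 and Dmrt1 lie 48.5 and 68.1 kb away. Between D3 and D6, when Dmrt2 rose, both fell: Dmrt1 averaged 6.77 CPM in D6 and 50.7 CPM in D3 (log2 fold change -2.91 ± 0.09 SE), and Dmrt3 averaged 0.661 CPM in D6 and 2.77 CPM in D3 (-2.06 ± 0.22 SE). Neither was called between D7G and D7. On the opposite strand, 0.167 kb upstream of the Dmrt2 start, begins the long noncoding gene 2610016A17Rik, chosen here after its values were seen. The Dmrt2 sequence printed above lies between these transcripts.

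The noncoding gene had 0 and 1 counts in D2, 3 and 1 counts in D3, 84 and 94 counts in D6, 19 and 24 counts in D7G, and 92 and 91 counts in D7. It was lower in D7G than in D7 by 2.03 ± 0.23 (SE) on the log2 scale (adjusted p = 7.50e-07, edgeR), a comparison in which Dmrt2 also fell. In D7 against D6 it did not pass the test (-0.06 ± 0.18 SE, adjusted p = 0.814), whereas Dmrt2 fell by 0.89 ± 0.11 (SE). The use of strand in counting is not given in the sources used here, so reads from either strand at the shared start could not be told apart, although the annotated exons do not overlap.

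**Figure D4:**
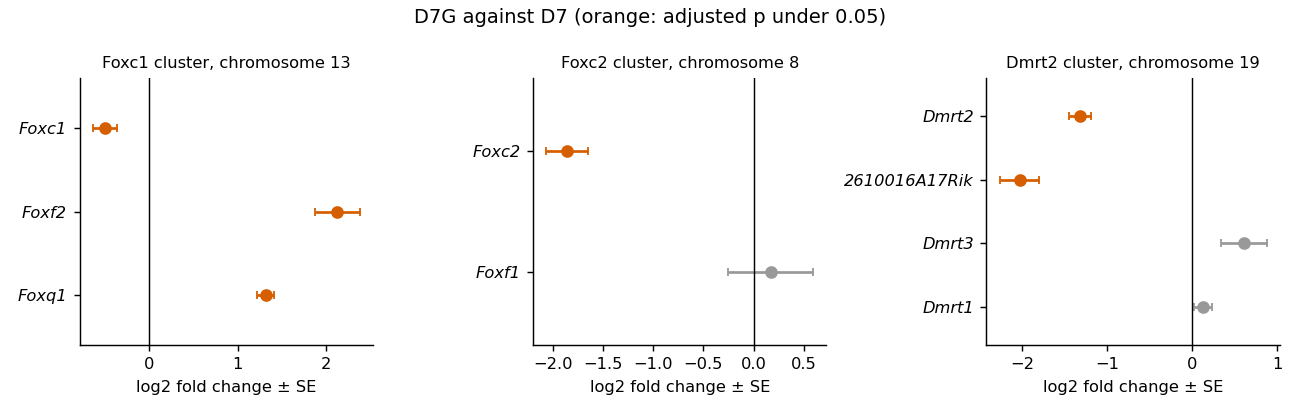
Log2 fold change (± SE) of D7G against D7 for Foxc1, Foxc2 and Dmrt2 and annotated genes close to them. Foxf2 and Foxq1 lie right of 0 while Foxc1 lies left of it, and 2610016A17Rik (-2.03) and Dmrt2 (-1.32) both lie left of 0; Foxl1 is not drawn because of its low counts.

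Among 11599 tested genes with at least 5 CPM in a group, those whose log2 CPM followed each member most closely over the 10 libraries were named by Pearson correlation. The 10 points are 5 groups of 2 libraries, so the values describe a shared course over few conditions and carry no test. Meox1 was followed most closely by Ifrd1 (r = 0.996), Thoc7 (0.993) and Map2k6 (0.992), and Dmrt2 by Suv39h1 (0.997), Lrig1 (0.996) and Nsd2 (0.996). For Foxc2 they were Skap2 (0.993), Mtfr1l (0.990) and Cox20 (0.988), and for Uncx Baz1b (0.994), Cbx2 (0.990) and Cand2 (0.988). Eya1 was matched by Nfatc3 (0.995), Cdk4 (0.994) and Shisa2 (0.992), Meox2 by Cenpb (0.989), Purb (0.987) and Polr3k (0.986), and Foxc1 by Snx19 (0.988), Fadd (0.986) and Slc25a12 (0.985). The genes nearest to Tcf15 were Mapk6 (0.988), Slc38a2 (0.981) and Fam131b (0.979), which were also lowest at D3. The correlation does not measure the size of a change. Thoc7 averaged 98.0 CPM at D3 and 140 CPM at D6, against 0.277 and 43.1 CPM for Meox1. Cox20 averaged 11.5 CPM at D3 and 15.8 CPM at D6, against 0.169 and 9.38 CPM for Foxc2.

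Within the set, Meox1 and Foxc2 had the highest correlation (r = 0.988), followed by Foxc1 and Dmrt2 (0.972). Every pair without Tcf15 was at 0.856 or above. Tcf15 was between -0.0835 (with Foxc1) and 0.389 (with Eya1).

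Other genes of somite formation and its derivatives were called in both directions. Between D3 and D6, 6 of 10 tested dermomyotome and myotome genes rose and 3 fell, and 4 of 9 sclerotome genes rose and 3 fell, where 32.4% of all tested genes were called higher and 33.3% lower, and nothing particular to these lists is read from the counts. Pax9, a sclerotome factor, averaged 10.0 CPM in D6 and 0.845 CPM in D3, and Pax7, a dermomyotome factor, 23.0 CPM in D6 and 2.12 CPM in D3. Among those that fell, Des of the dermomyotome and myotome list averaged 1.52 CPM in D6 and 11.6 CPM in D3. Scx of the sclerotome list averaged 0.339 CPM in D6 and 1.24 CPM in D3. Among 13 tested genes of the presomitic mesoderm and segmentation, 6 rose and 5 fell. The 5 became 2 without D3 replicate 2 or by DESeq2, and 3 without D6 replicate 2 or without a filter. Pcdh8, a protocadherin of forming somites, rose (log2 fold change 2.43 ± 0.15 SE), and Rspo3, a Wnt agonist, fell (-1.94 ± 0.10 SE). Msgn1 of the same list fell further, averaging 0.242 CPM in D6 and 6.61 CPM in D3.

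The muscle determination genes Myf5, Myf6, Myod1 and Myog had 0 to 4 counts in every library, and the sclerotome gene Nkx3-2 and the segmentation gene Mesp1 had at most 1 and 6 counts. Of the 11 tested genes of the spinal cord list, 9 were higher at D6 than at D3 and 2 were lower. Over all tested genes, 32.4% were called higher and 33.3% lower. The list summed to 750 to 814 CPM over its 12 genes at D6, against 263 to 280 CPM at D3.

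In D7G against D7, where 22.5% of all tested genes were called higher and 18.2% lower, 5 of the 9 sclerotome genes rose and 2 fell (1 without D7G replicate 1, without D7 replicate 2 or by DESeq2). Twist1, a mesenchymal bHLH factor, and the tendon factors Mkx and Scx rose, by 1.06 ± 0.07, 1.22 ± 0.11 and 2.12 ± 0.33 (SE) on the log2 scale, while Pax9 fell by 1.19 ± 0.12. Of the presomitic and segmentation genes 5 rose and 2 fell, with Epha4 at 55.9 CPM in D7G and 33.7 CPM in D7, and Aldh1a2, which makes retinoic acid, at 12.6 CPM in D7G and 18.5 CPM in D7. Of the dermomyotome and myotome genes 2 rose and 2 fell. Pax7 fell by 0.81 ± 0.08 (SE). The rise of Pax3 in this list was lost without any single D3, D7G or D7 library, and the fall of Des without D7G replicate 2 or D7 replicate 1.

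Relatives of the members by family were also measured in D7G against D7. Of 14 forkhead and Dmrt genes, 4 rose and 3 fell, where 22.5% of all tested genes were called higher and 18.2% lower, and nothing is read from the count. Eya2, a paralogue of Eya1, averaged 6.42 CPM in D7G and 2.91 CPM in D7 (log2 fold change 1.14 ± 0.14 SE, adjusted p = 2.70e-06, edgeR), and Dach1, a nuclear partner of Eya proteins, averaged 36.9 CPM in D7G and 45.8 CPM in D7 (-0.31 ± 0.08 SE).

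**Figure D5:**
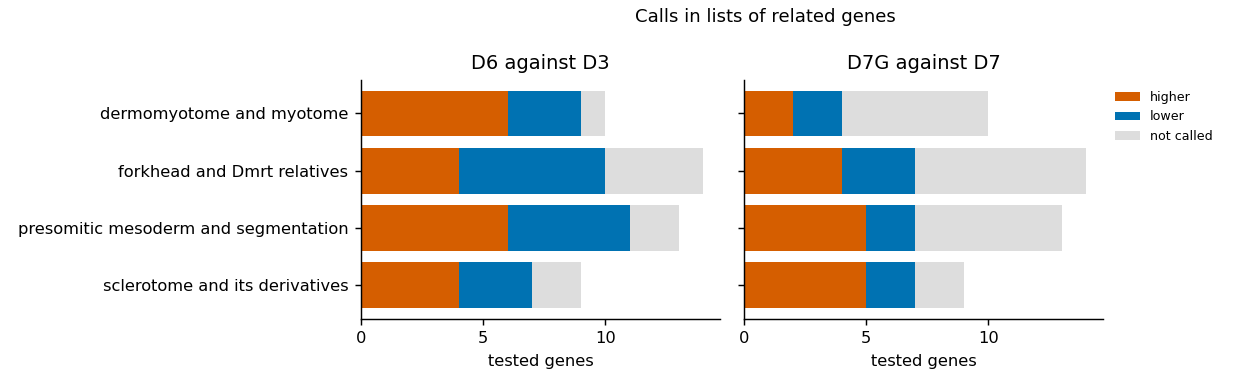
Number of tested genes called higher, lower or not called in 4 lists of related genes, for D6 against D3 (left) and D7G against D7 (right). The lists hold 9 to 14 tested genes each, and every bar holds genes called in both directions.

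Markers of other cell types also moved in D7G against D7, where 22.5% of all tested genes were called higher and 18.2% lower. The lateral plate and limb list, 12 genes, summed to 336 to 339 CPM in D7G and to 126 to 134 CPM in D7, with 7 of 11 tested genes higher and 0 lower. The embryo fibroblast list, 10 genes chosen for the feeder cells, summed to 1100 to 1253 CPM in D7G and 390 to 407 CPM in D7, with 7 of 9 higher and 0 lower. The neural crest and placode list, 10 genes, summed to 144 to 151 CPM in D7G and 58.6 to 60.9 CPM in D7, with 6 of 10 higher and 0 lower. No gene of these 3 lists was at 0 counts in both libraries of D7G or of D7. The part of such cells in the changes of the 8 genes was not tested.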

How the data were processed

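The members and the 13 gene lists were chosen with earlier results of these data known. The counts of 1 list are not reported here. The raw counts per gene symbol were deposited by the authors and are whole numbers; the submitters' processing notes name mm10, limma, featureCounts 1.6.3, HISAT2 2.1.0 and STAR, and the step each served, the counting options and the use of strand are not given in the sources used here. The authors' deposited table of genes with CPM, log2 fold changes and p-values (FDR) lists all 8 genes, and no value of it is used here. Counts were analysed with R 4.3.3 and edgeR 4.0.16: 1 quasi-likelihood fit of all 10 libraries, 1 coefficient per group, 5 residual degrees of freedom, TMM scaling and default filterByExpr, which kept 18818 genes. Benjamini-Hochberg adjustment ran, within each comparison, over every tested gene. The quasi-likelihood test gives no SE. Each SE here is the absolute log2 fold change divided by the square root of the F statistic, and is approximate. CPM uses TMM-scaled library sizes, and RPKM the gene length deposited with the raw counts. A fold against a group of 3 or fewer counts is given as a ratio with a 95% interval, which covers counting error only.

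All 8 genes are named throughout, with the 3 genes most correlated with each and annotated cluster neighbours. Of the list genes that passed the test with 1 CPM or more in a group, only some are named. They are not always those with the largest changes. In counts simulated for D7G against D7 over 18818 genes, edgeR recovered 90% of genes changed 1.5-fold, 94% changed 2-fold and 100% changed 4-fold, while 20 of its 212 calls were false. The changed genes, 50 at each fold, were drawn from genes above a minimum mean count. Recovery of genes with lower counts was not measured. The alternatives were DESeq2 1.42.0, limma-voom (limma 3.58.1), other scaling, other filters, the second deposited count table (Ensembl genes), only the libraries compared, a replicate block and each library left out. Values of other named genes and list counts under these settings were added after seeing the data.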

Additional observations from a re-analysis of the deposited data

How the results depend on the processing

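Depth limits Meox2, Meox1, Foxc2 and Uncx before D6, and Dmrt2 in D2, where libraries hold few counts. The rise of all 8 genes by D6 and the 4 falls in D7G against D7 kept their calls under every setting run, and 7 to 8 genes were called lower in D7 against D6 and 6 to 8 in D7G against D6. The number of genes called higher in D7G against D7 was 2 with only the libraries of both groups, and 0 to 2 with single libraries left out. The number lower in D3 against D2 was 1 to 2, and all tested genes called higher in D7 against D6 were 2294 to 3607, with single libraries left out; the lowest came without D7 replicate 2. For D3 against D2 the sign of the log2 difference changed when single libraries were left out for Meox1 (-0.0901 to 0.48), Foxc2 (-0.49 to 1.31) and Meox2 (-3.77 to 0.30), none of them called. A group with 1 library left is assumed to vary like the others. Uncx in D3 against D2 was not called by limma-voom (adjusted p = 0.0575) or without a filter (0.0809). With only D2 and D3 libraries 4 of the 8 genes were tested. Meox2 in D7G against D6 was called with RLE factors (adjusted p = 0.0421), the filter of 1 CPM in 2 libraries (0.0321) and the replicate block (-0.61, adjusted p = 0.0467), and not by DESeq2 (0.220) or limma-voom (0.0895); with single libraries left out its log2 difference ran from -0.14 to -0.98.

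No strong shared effect of replicate number was seen: differences between replicates correlated at -0.0720 to 0.115 between groups. Whether libraries of the same number were made together cannot be told from this, since noise in a single difference per group can hide pairing. The replicate block changed no other call of the 8 genes.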

Other observations

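Lists of further cell types were measured in D7G against D7, where 22.5% of all tested genes were called higher and 18.2% lower. Of 10 neuronal genes 7 were called higher and 0 lower, with a summed level of 282 to 292 CPM in D7G and 155 to 157 CPM in D7. Of 10 epiblast genes 8 were higher and 0 lower, at 485 to 548 CPM in D7G and 369 to 385 CPM in D7. Spinal cord progenitor genes went the other way, with 2 of 11 tested genes higher and 5 lower, at 799 to 855 CPM in D7G and 939 to 945 CPM in D7. Intermediate mesoderm had 4 of 8 genes higher and 0 lower, at 23.6 to 26.2 CPM in D7G and 16.3 to 18.8 CPM in D7. Endothelium and blood had 1 of 9 tested genes higher and 0 lower, at 48.8 to 62.4 CPM in D7G and 40.4 to 41.4 CPM in D7. Nothing is read from the count of endothelium and blood genes. How these counts change without single libraries was not computed.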
